A study of Homo sapiens with 16 samples.

Results

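The mRNAs of the mitochondrial ribosomal proteins were followed through a pair of sucrose gradients, 1 from arsenite-treated and 1 from untreated 293S cells. The members were taken from the deposited gene table by symbol, as MRPL or MRPS followed by a number. This gave 76 of 13148 genes, 47 for the large subunit (MRPL) and 29 for the small subunit (MRPS). None of the 76 was listed at 0 in any library.

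293S is a suspension-adapted line derived from human embryonic kidney HEK293 cells. Treated cells received 1 mM sodium arsenite for 30 minutes, and control cells received none; no genetic change is given in the labels for either. Each lysate was spread over 8 gradient fractions, and RNA from each fraction gave 1 library, so 8 arsenite and 8 control libraries were available with no replicate gradient. The study asked how stress alters translation rates, among other things, according to its title. A table value gives how much of an mRNA was found in 1 fraction, as a share of its sum over the gradient, so the 8 shares of a gene add up to 100%. Shares carry no expression level, so the cell line could not be checked against marker levels, the depth behind a value is unknown, and a change in the amount of an mRNA cannot be seen.

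Mitochondria carry their own ribosomes, which translate the few proteins that mitochondrial DNA encodes, all of them parts of the respiratory chain and the ATP synthase. The RNAs of these ribosomes are made inside the organelle, whereas their proteins are encoded in the nucleus. Those proteins are translated by cytosolic ribosomes and imported. Many have bacterial homologs, and others were added during mitochondrial evolution. In a sucrose gradient, an mRNA that carries more cytosolic ribosomes sediments farther. Arsenite is an oxidative stressor known to repress the start of translation through phosphorylation of eIF2α. Whether fraction 1 is the top or the bottom is not stated in the labels, so results are given by fraction number.

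With arsenite the mitochondrial ribosomal protein mRNAs lay at lower fraction numbers than in control cells, by more than the median gene did. The member median in fractions 1 to 8 was 45.0, 23.1, 15.9, 6.84, 2.85, 1.06, 0.642 and 0.437% with arsenite. In control cells it was 4.71, 4.90, 11.4, 16.2, 33.8, 14, 5.47 and 1.61%. The members thus crowded into fraction 1 with arsenite, and around fraction 5 in control cells. Over all genes the medians were 9.41, 23.9, 24.9, 15.2, 10.9, 3.07, 1.47 and 0.789% with arsenite, with the highest in fraction 3.

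Every member held a larger share in fractions 1 and 2 with arsenite than in control cells, and a smaller share in each of fractions 5 to 8. Over all genes, the share was higher with arsenite in 93.4% for fraction 1 and 94.6% for fraction 2. It was lower in 71.7% for fraction 5, 94.3% for fraction 6, 95.4% for fraction 7 and 92.7% for fraction 8. The direction was therefore common to most genes, and the members differed from the median gene in its size. In fraction 3 the share was higher with arsenite for 56 members, against 79.3% of all genes, and in fraction 4 it was lower for 65, against 58.3%. The median gain in fraction 1 was 40.2 percentage points for the members and 5.13 for all genes, and the median loss in fraction 5 was -30.3 and -7.21 points.

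Fraction 1 was the largest with arsenite for 55 members, fraction 2 for 18 and fraction 3 for MRPL30, MRPL44 and MRPS9. Over all genes, fraction 1 was the largest with arsenite in 14.3%, fraction 2 in 34.5% and fraction 3 in 37.2%. In control cells fraction 5 was the largest for 47 members, against 28.6% of all genes. Fractions 4 and 6 were each the largest for 14 members, 18.4%, against 20.6% and 21.6% of all genes. Fraction 7 was the largest in 14.9% of all genes but, among the members, only for MRPS31. At least 50% of the total lay in fractions 1 and 2 for 70 members with arsenite and for 0 in control cells, and the share of all genes that did so with arsenite was 32.9%. At least 50% lay in fractions 5 to 8 for 0 members with arsenite and for 59 in control cells, where 58.6% of all genes did so.

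**Figure D1:**
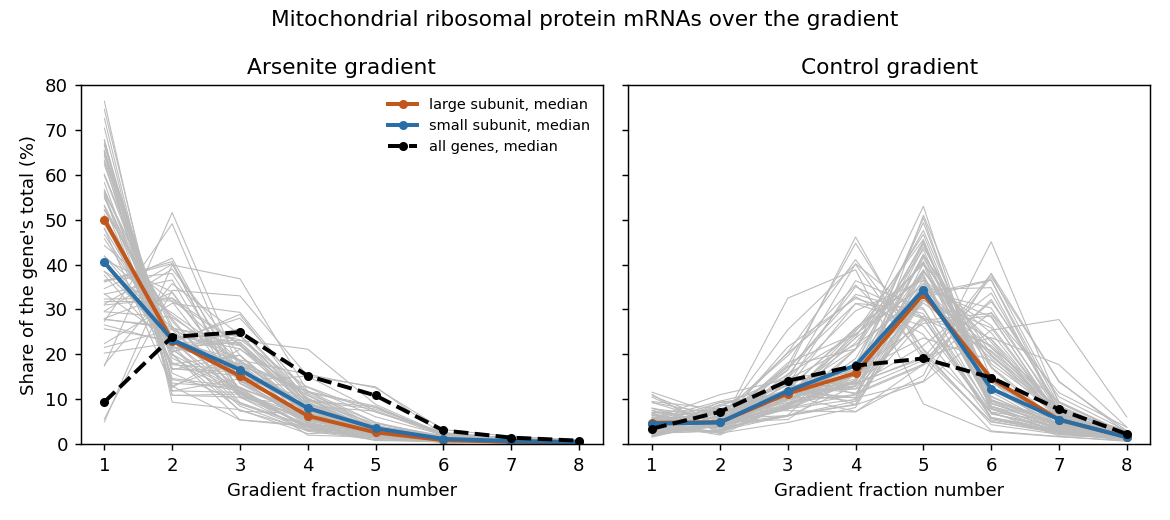
Share of each gene's total (%, vertical axis) in gradient fractions 1 to 8 (horizontal axis), in the arsenite gradient on the left and the control gradient on the right. Grey lines are the 76 mRNAs, coloured lines the medians of the large and small subunit, and the dashed line the median of all 13148 genes; with arsenite the member lines are highest in fraction 1, at a median of 45.0%, and in control cells around fraction 5, at 33.8%.

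Each profile was reduced to a position, the mean fraction number weighted by the shares, and the shift is the arsenite position minus the control position. The median position of the members was 2.06 with arsenite (quartiles 1.77 and 2.25) and 4.57 in control cells (quartiles 4.30 and 4.76). The highest member position with arsenite, 3.01 for MRPS27, lay below the lowest in control cells, 3.51 for MRPL33. The median gene stood at 3.10 with arsenite and 4.54 in control cells. With arsenite all 76 members lay below the median gene, whereas in control cells 35 of the 76 did. The members and the table as a whole thus stood at nearly the same place in control cells and were 1.04 fractions apart with arsenite.

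The median shift was -2.45 fractions for the members and -1.46 for all genes. Subtracting the median of all genes from each gene's shift gives its relative shift, which had a median of -0.99 over the members (quartiles -1.28 and -0.80) and was negative for all 76. The quartiles over all genes were -0.52 and 0.48. The term moved is used of a relative shift of 0.5 fractions or more, in either direction, whose sign also held after dropping any 1 fraction number from both gradients. By this rule 66 of 76 members moved lower, against 24% of all genes, and 0 moved higher, against 23.6%. With 1 library per treatment and fraction there is no test behind these calls, and the intervals are the spread over genes, not over replicates.

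Fraction 1 weighed most on the size of the shift. Without it the median relative shift of the members was -0.55, 69 of 76 values were negative, and 40 members met the rule, against 21% of all genes. Of the 66 moved members, 46 had a value smaller by over 1.5 times without fraction 1, 24 without fraction 5, 6 without fraction 6 and 1 without fraction 4, and 1 had a value larger by as much without fraction 3. The relative shift of MRPL39, the farthest of all, was -0.76 without fraction 1. Rescaling the libraries by median-of-ratios size factors gave a median of -1.52 and 56 members moved lower, 55 of them among the 66, against 26.4% of all genes. All 76 relative shifts were negative on that scale also. With a threshold of 1 fraction, 38 members moved lower, against 9.33% of all genes, and with 0.25 fractions 69 did, against 31.3%.

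**Figure D2:**
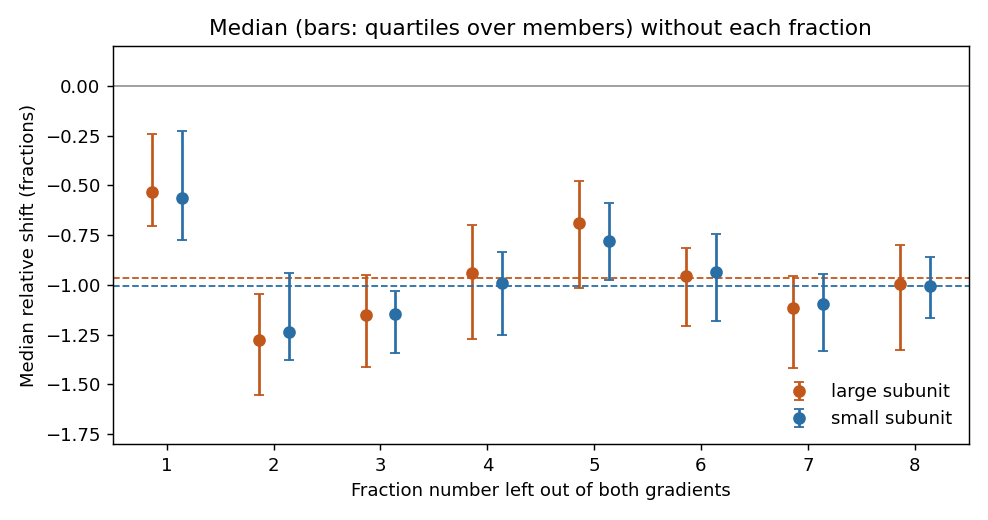
Median relative shift in fractions (vertical axis) when 1 fraction number is left out of both gradients (horizontal axis), for the large subunit to the left of the small subunit at each number. Bars are quartiles over members, not replicate errors, and dashed lines are the medians with all 8 fractions; without fraction 1 the medians were -0.53 and -0.56, the nearest to 0 of the 8.

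The subunits were then compared. The relative shift had a median of -0.97 over the 47 large subunit mRNAs and -1.0 over the 29 small subunit mRNAs, a difference of 0.04 fractions. The quartiles were -1.29 and -0.75 for the large subunit and -1.18 and -0.85 for the small subunit, so the spread within each subunit was many times the difference between them. Of the large subunit 40 moved lower, 85.1%, and of the small subunit 26, 89.7%, against 24% of all genes. The sign of the difference depended on the processing, being -0.06 with size factors and -0.18 over the 19 members with no listed pseudogene and no exon overlap. Members are not replicates, and with 1 gradient per treatment a difference between the subunits could not be tested.

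The median position was 1.98 for the large and 2.17 for the small subunit with arsenite, and 4.56 and 4.59 in control cells. The median share in fraction 1 with arsenite was 50% for the large and 40.5% for the small subunit. In fractions 5 to 8 together the median was 4.72% for the large and 5.99% for the small subunit with arsenite, and 61.5 and 62.1% in control cells. Coding lengths were alike, with medians of 576 and 588 nt, whereas the whole annotated mRNA had medians of 1262 nt for the large and 1547 nt for the small subunit. The part of mRNA length in the fraction 1 values was not tested.

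**Figure D3:**
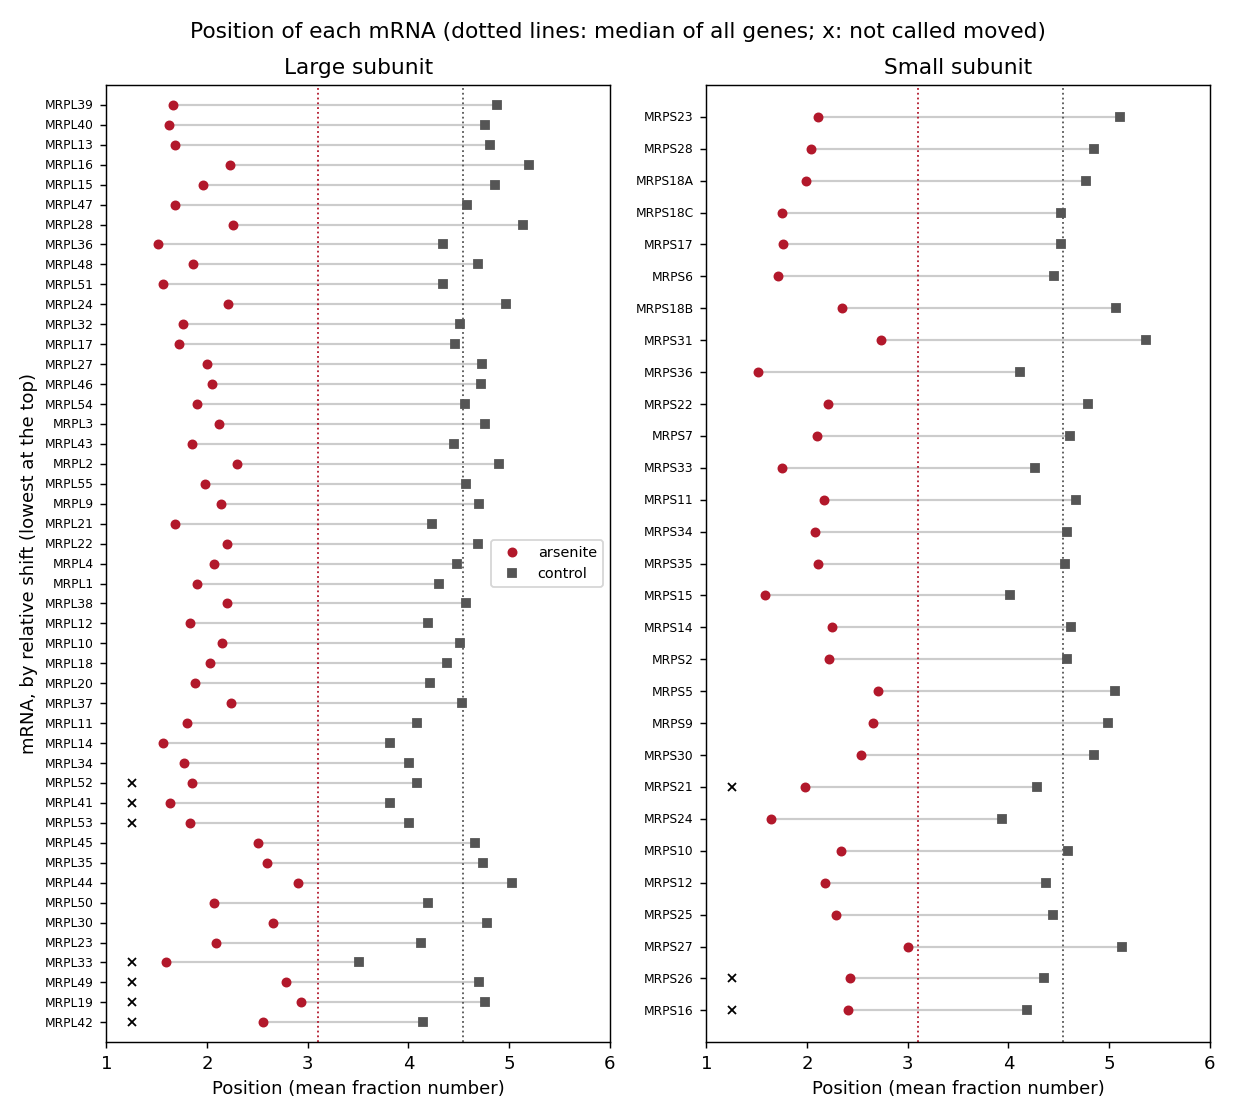
Position of each of the 76 mRNAs (mean fraction number, horizontal axis) with arsenite (red circles) and in control cells (grey squares), for the large subunit on the left and the small subunit on the right, ordered by relative shift with the lowest at the top. Dotted lines are the medians of all genes, 3.10 with arsenite and 4.54 in control cells, and crosses mark the 10 mRNAs not called moved; every red circle lies left of 3.10.

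Within the large subunit the farthest shift was that of MRPL39, a mitochondria-specific protein related to threonyl-tRNA synthetase. Its shares in fractions 1 to 8 were 66.9, 15.8, 9.24, 3.15, 2.89, 1.07, 0.742 and 0.151% with arsenite. In control cells they were 4.54, 2.07, 8.86, 14.2, 35.8, 26.5, 6.40 and 1.64%. Most of this mRNA was thus in fraction 1 with arsenite and in fractions 5 and 6 in control cells, and its position was 1.66 against 4.88, a relative shift of -1.76. MRPL40, another protein without a bacterial homolog, had 67.8, 13.6, 12.6, 3.30, 1.47, 0.588, 0.364 and 0.308% with arsenite. In control cells it had 4.63, 4.02, 8.17, 14.2, 42.3, 17.9, 6.98 and 1.79%. The profile resembled that of MRPL39, with a relative shift of -1.69. Without fraction 1 the value of MRPL40 was -0.73. MRPL13, a homolog of bacterial L13, followed at -1.67, with 65.5% in fraction 1 with arsenite and 4.77% in control cells.

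MRPL16, whose bacterial homolog L16 sits near the tRNA binding sites, had the highest control position of the large subunit. It stood at 2.23 with arsenite and 5.20 in control cells, a relative shift of -1.52, or -1.01 without fraction 1. Its shares were 40.1, 22.2, 22.6, 9.19, 3.58, 1.05, 0.809 and 0.516% with arsenite. They were 3.73, 2.46, 4.84, 8.18, 33.4, 36.6, 8.61 and 2.14% in control cells. With arsenite the mRNA was spread over fractions 1 to 3, and in control cells over fractions 5 and 6. MRPL28, a homolog of bacterial L28, stood at 2.26 with arsenite and 5.14 in control cells. MRPL44, which carries a domain related to RNase III, stood at 2.90 with arsenite and 5.03 in control cells. It stayed higher in the arsenite gradient than most members, with 20.3% in fraction 1 and 21.2% in fraction 4, and its relative shift was -0.67.

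The mRNAs for proteins of the catalytic core and the exit tunnel of the large subunit moved lower as well. MRPL3, the homolog of bacterial L3, which reaches towards the peptidyl transferase centre, had a relative shift of -1.18. MRPL4, homologous to the tunnel protein L4, had -0.97. MRPL23, homologous to L23 at the tunnel exit, had -0.58, the smallest shift among the 66, and this value was -0.0014 without fraction 1 and -1.84 with size factors. MRPL45, which anchors the ribosome to the inner mitochondrial membrane, had -0.69. For MRPL45 fractions 1 to 8 held 22.4, 31.4, 29.4, 10.8, 3.65, 1.21, 0.681 and 0.523% with arsenite. They held 5.55, 9.60, 13.1, 11.4, 17.9, 32.2, 8.43 and 1.80% in control cells. This mRNA was thus spread over fractions 1 to 3 with arsenite and was highest in fraction 6 in control cells.

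The stalk of the large subunit, which recruits translation factors, was represented by MRPL10, MRPL11 and MRPL12. MRPL11 had a relative shift of -0.83, with 55.1% in fraction 1 with arsenite and 5.37% in control cells. MRPL12, the homolog of L7/L12, had -0.91, with 52.2% with arsenite and 4.44% in control cells. In MRPL11 and MRPL12 the largest control fraction was fraction 4, which held 33.4% of MRPL11 and 36.4% of MRPL12. Both lay lower than the median member in control cells, at 4.08 and 4.20. MRPL10, the homolog of L10 at the base of the stalk, was added after its values were seen. Its relative shift was -0.91, its position 2.15 with arsenite and 4.51 in control cells, and its largest fraction was fraction 2 with arsenite and fraction 5 in control cells.

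The lowest control positions of the large subunit belonged to MRPL33, MRPL41 and MRPL14. MRPL33, with the shortest coding sequence of all members at 195 nt, stood at 1.59 with arsenite and 3.51 in control cells. Its shares were 70.4, 11.9, 11.5, 3.66, 1.03, 0.600, 0.523 and 0.348% with arsenite. They were 10.5, 3.90, 32.5, 38.9, 8.98, 2.78, 1.65 and 0.863% in control cells. MRPL33 had thus most of its mRNA in fraction 1 with arsenite, but in fractions 3 and 4, not 5, in control cells, and its relative shift of -0.47 was not called. MRPL14 and MRPL41 stood at 1.57 and 1.63 with arsenite, and both at 3.82 in control cells. The relative shift of MRPL14 was -0.80. That of MRPL41 was -0.73 and not called, since it was 0.05 without fraction 1. By the share in fractions 5 to 8 in place of the position, 8 members lost less than the median gene. The difference was 21.7 percentage points for MRPL33, 11.9 for MRPL41, 9.21 for MRPL53, 9.08 for MRPL34, 6.45 for MRPL14, 4.77 for MRPL23, 2.22 for MRPS24 and 1.40 for MRPS16. By position, 4 of these, MRPL34, MRPL14, MRPL23 and MRPS24, had been called moved lower. In control cells the 8 held only 14.3% (MRPL33) to 39.3% (MRPS16) in fractions 5 to 8, against a median of 53.9% over all genes. Whether the lower control share accounts for the smaller loss was not tested.

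The large subunit mRNAs nearest to the median gene were MRPL42, MRPL19, MRPL49 and MRPL33. MRPL42, which has no bacterial homolog, had 29.5, 28.2, 18.3, 11.7, 8.48, 1.99, 1.03 and 0.765% with arsenite. In control cells it had 5.77, 11, 14.5, 22.1, 32.9, 7.18, 4.88 and 1.59%. Its mRNA was spread over fractions 1 to 4 with arsenite and over fractions 2 to 5 in control cells, and its relative shift of -0.14 was the highest of the 76. GENCODE lists 4 pseudogenes of MRPL42, and reads from the gene and its copies may be split between them. MRPL19, a homolog of L19, stood at 2.94 with arsenite and 4.76 in control cells, a relative shift of -0.37. MRPL49 had only 4.99% in fraction 1 with arsenite, the lowest of the 76, beside 39.9% in fraction 2, and its relative shift was -0.46.

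Among the small subunit mRNAs MRPS23, a mitochondria-specific protein, had the farthest shift, -1.55, or -0.89 without fraction 1. Its shares were 45.7, 23.2, 16.2, 8.11, 4.06, 1.49, 0.813 and 0.332% with arsenite. They were 3.0, 3.0, 6.39, 9.57, 34.4, 34.9, 6.71 and 2.06% in control cells. The control profile was split nearly evenly between fractions 5 and 6, and the arsenite profile was highest in fraction 1. MRPS28, which has a bacterial homolog, was next at -1.35. MRPS31, a mitochondria-specific protein, stood at 2.73 with arsenite and 5.36 in control cells, the highest control position of all members. It held 1.44% in fraction 7 with arsenite and 27.8% in control cells, where fraction 7 was its largest. Its relative shift was -1.18.

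The 3 paralogs of bacterial S18 were similar in shift though not in position. MRPS18A had a relative shift of -1.33, MRPS18B of -1.26 and MRPS18C of -1.32. Their positions were 1.99, 2.35 and 1.75 with arsenite, and 4.77, 5.07 and 4.52 in control cells. MRPS18B was highest in fraction 6 in control cells, at 45.1%, and MRPS18A and MRPS18C in fraction 5, at 40.2% and 46.7%. The value of MRPS18C was -0.07 without fraction 1, in which it held 67.7% with arsenite. Despite its name, the MRPS18A protein sits in the large subunit, as does MRPS30, a relative of MRPL37. MRPS30 had a relative shift of -0.86 and MRPL37, the longest coding sequence of the large subunit, -0.84. With both counted in the large subunit, the medians were again -0.97 over 49 large and -1.0 over 27 small subunit mRNAs.

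Of the other small subunit mRNAs with known roles, 5 had relative shifts from -1.13 to -0.73. MRPS2 had -0.91, MRPS7 -1.06 and MRPS34, needed for the stability of the small subunit, -1.04. MRPS22, in which mutations cause mitochondrial disease, had -1.13. MRPS12, homologous to S12 of the decoding centre, had -0.73. All 5 were called moved lower. MRPS24 and MRPS15, homologs of bacterial S3 and S15, had the lowest control positions of the small subunit. They stood at 1.64 and 1.58 with arsenite and at 3.94 and 4.02 in control cells.

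The small subunit mRNAs nearest to the median gene were MRPS16, MRPS26, MRPS27 and MRPS25. MRPS16, a homolog of S16 in which mutations also cause mitochondrial disease, had 17.4, 51.6, 16.6, 7.21, 4.07, 1.71, 0.854 and 0.585% with arsenite. In control cells it had 1.95, 8.35, 15.3, 35.1, 28.1, 7.02, 2.91 and 1.27%. Fraction 2, not fraction 1, was therefore its largest with arsenite, and its relative shift of -0.32 was not called. GENCODE lists 3 pseudogenes of MRPS16. MRPS26 had -0.48, just outside the size needed for a call, whereas MRPL23 at -0.58 was the nearest inside it.

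MRPS27, a pentatricopeptide repeat protein that binds RNA, reached the highest position of all members with arsenite. Its shares were 5.64, 34.3, 33, 15.1, 7.42, 2.42, 1.32 and 0.745% with arsenite. They were 2.07, 6.47, 12.2, 10.3, 14, 38.1, 13.9 and 3.0% in control cells. MRPS27 and MRPL49 were alone among the members in holding under 10% in fraction 1 with arsenite, a pair chosen after these values were seen; the next lowest was MRPS16, at 17.4%. The relative shift of MRPS27 was -0.66 and kept its sign without each fraction, so it was called.

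MRPS36 met the naming rule, although its protein is now known as a component of the 2-oxoglutarate dehydrogenase complex and not of the ribosome. It held 76.4% in fraction 1 with arsenite, the most of all 76, and 11.1% in control cells. Its relative shift was -1.15, and -0.04 without fraction 1. GENCODE lists 5 pseudogenes of MRPS36, so its value is uncertain. Without MRPS36 the median over the other 75 members was -0.98, and 65 of them moved lower, against 24% of all genes.

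The 10 members without a call fell into 2 kinds. MRPL41, MRPL52, MRPL53 and MRPS21 passed the size but changed sign without fraction 1. MRPL19, MRPL33, MRPL42, MRPL49, MRPS16 and MRPS26 were under the size. MRPS21, which has the shortest coding sequence of the small subunit at 261 nt and 8 listed pseudogenes, had a relative shift of -0.85. It was 0.05 without fraction 1, in which it held 55.6% with arsenite and 4.89% in control cells.

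Members were also divided by origin. Of the 48 with a bacterial homolog 44 moved lower, 91.7% against 24% of all genes, with a median relative shift of -1.01. Of the 28 without one 22 moved lower, 78.6%, with a median of -0.96. In the large subunit the medians were -1.07 for 30 with a homolog and -0.84 for 17 without, and 28 and 12 moved lower. In the small subunit they were -0.95 for 18 with a homolog and -1.04 for 11 without, and 16 and 10 moved lower. The order of the medians thus differed between the subunits, and the quartiles overlapped in both.

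Coding length ordered the members within each gradient but not by shift. Across the 76 mRNAs, Spearman's rho between coding length and position was 0.50 with arsenite and 0.63 in control cells. It was -0.10 with the relative shift. Over the 13035 genes with a length, the values were 0.67 with arsenite, 0.38 in control cells and 0.27 with the relative shift. Between control position and relative shift, rho was -0.41 over the 76 members and -0.55 over all 13148 genes. The control position is itself a term of the shift, and its part in the size of the shifts was not tested. These are descriptions across genes that share the same 16 libraries. The shortest 26 coding sequences, of 195 to 483 nt, stood at a median of 1.85 with arsenite and 4.28 in control cells. The middle 25 stood at 2.04 with arsenite and 4.62 in control cells, and the longest 25, of 768 to 1317 nt, at 2.22 with arsenite and 4.76 in control cells. The relative shift had medians of -0.87, -1.06 and -0.97 in these 3 classes.

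Short coding sequences were common among the members, and all genes of the same range served as a second yardstick. The 5856 genes with 195 to 1317 nt had a median position of 2.69 with arsenite and 4.37 in control cells, and a median relative shift of -0.19. With that median as the zero point, the members' median was -0.80, and 57 of 76 moved lower, against 23.7% of those genes. This yardstick was added after the values were seen.

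**Figure D4:**
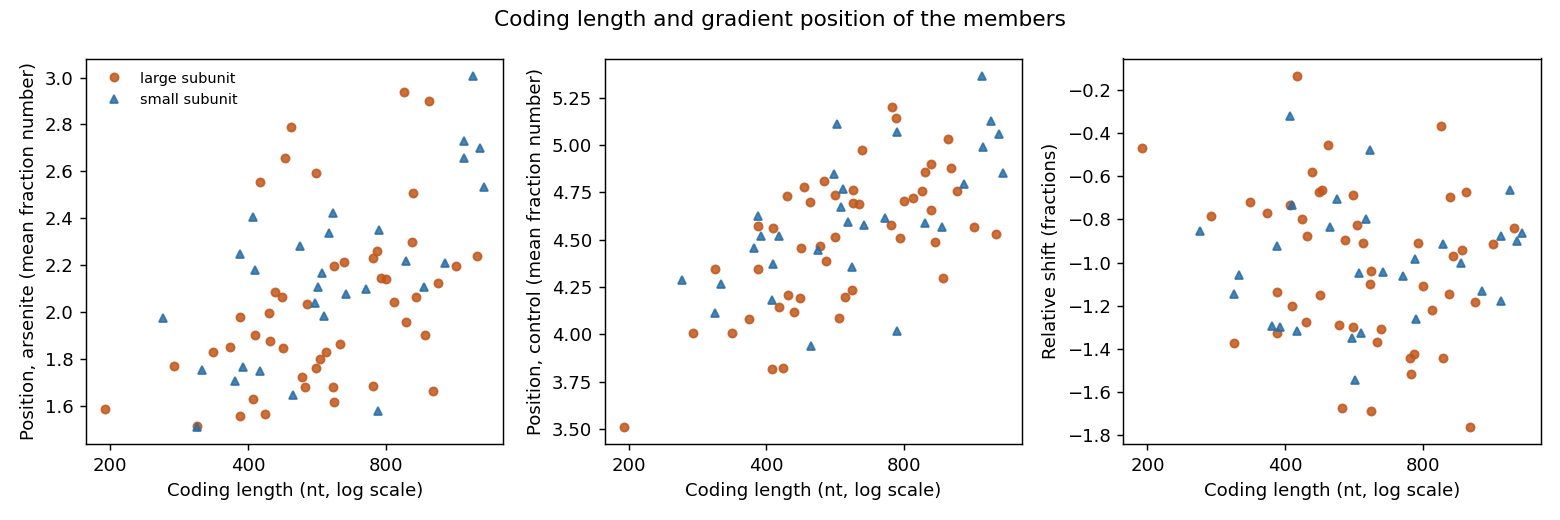
Coding length (nt, log scale, horizontal axes) of the 76 mRNAs against position with arsenite (left), position in control cells (middle) and relative shift in fractions (right). Circles are large subunit and triangles small subunit mRNAs; Spearman's rho is 0.50, 0.63 and -0.10 across the panels, so longer coding sequences lie higher in both gradients and not in the shift.

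The starts of the genes were compared in the RefSeq promoter table (GRCh38.p14), which matched 68 members and 10732 genes in all. The letters ATGGCGGC are the core of TISU, an initiation element known from mRNAs with very short leaders. They were searched within the first 50 transcribed bases on the gene's own strand. They stood in 16 of 68 members, 23.5%, against 3.42% of all genes, with 7 of 40 in the large and 9 of 28 in the small subunit. Among respiratory complex I genes with a promoter the share was 18.8%, and among cytosolic ribosomal protein genes 1.59%. The shorter ATGGCG, which is part of the same letters, stood in 26 members, 38.2%, against 7.40% of all genes. Leaders annotated by GENCODE had a median of 117.5 nt over the members and 206 nt over all genes. The first 30 transcribed bases are shown for 5 members that hold ATGGCGGC, in capitals, and for MRPL39 and MRPL40, the farthest shifted, which lack it and have only the first ATG in capitals.
MRPL38 (chr17:75904855-75904884, minus strand): ggagggaagATGGCGGCgccctggtggcga
MRPL46 (chr15:88467359-88467388, minus strand): gagaacgaaagATGGCGGCgcccgtaaggc
MRPS18A (chr6:43687762-43687791, minus strand): aggtttttgaagATGGCGGCcctcaaggct
MRPS30 (chr5:44808947-44808976, plus strand): ggaatcgcgggcaaagATGGCGGCggccag
MRPS35 (chr12:27710832-27710861, plus strand): gtcctcgcagccATGGCGGCcgccgcgctc
MRPL39 (chr21:25607452-25607481, minus strand): gctgctATGgaggcgctggccatgggttcc
MRPL40 (chr22:19432545-19432574, plus strand): gagggtagccATGacggcctccgtgctgcg

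The 16 holders of ATGGCGGC had a median relative shift of -0.93, and 15 moved lower. The 52 members without it had -1.05, and 43 moved lower. Over all genes 24% moved lower. The annotated leader had a median of 52 nt in holders and 139 nt in the others. Leaders were taken from GENCODE and starts from RefSeq, and the 2 can differ. The GENCODE leader was 538 nt for MRPL38 and 653 nt for MRPL40, whose capitals begin at bases 10 and 11. For MRPS18A the 2 matched, at 12 nt and base 13. Among those printed, the relative shift was -0.92 for MRPL38, -1.22 for MRPL46, -1.33 for MRPS18A, -0.86 for MRPS30 and -1.0 for MRPS35. Members with and without these letters thus overlapped in shift, from -1.33 to -0.37 in holders and from -1.76 to -0.14 in the others.

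A start of C followed by at least 4 further pyrimidines, the pattern of terminal oligopyrimidine mRNAs, was read from the same table. It stood in 5 of 68 members, 7.35%, against 5.36% of all genes and 65.1% of cytosolic ribosomal protein genes with a promoter. The letters CCGGAAG, the core bound by ETS factors such as GABP, known for nuclear genes of mitochondrial proteins, were searched on both strands of the 300 bases around the start. They stood in 28 members, 41.2%, against 18.7% of all genes. Among cytosolic ribosomal protein genes with a promoter the share was 34.9%, and among respiratory complex I genes 15.6%. Stretches before the start are printed for 4 members with CCGGAAG in capitals, as examples.
MRPL3 (chr3:131502985-131503014, minus strand): tgtaaaacgcaCCGGAAGtgggtccggcgg
MRPL40 (chr22:19432515-19432544, plus strand): actgtggaggggcgcacgcCCGGAAGcggc
MRPS18A (chr6:43687804-43687833, minus strand): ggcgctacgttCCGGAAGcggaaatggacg
MRPS31 (chr13:40771204-40771233, minus strand): aaggcgccaggCCGGAAGcggaagagaggg

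In these 4 the first capital lay 32, 11, 31 and 32 bases before the start. The distance varied among members, from 8 bases in MRPL33 to 222 in MRPS18C. The 28 members with CCGGAAG had a median relative shift of -1.14 and 22 moved lower. The 40 without it had -0.92 and 36 moved lower, where 24% of all genes did. The median was thus lower in holders, whereas a smaller share of them was called moved lower. A match shows letters only, and no binding was measured. MRPS11 and MRPL46 start 320 bases apart on opposite strands of chromosome 15. Their relative shifts were -1.05 and -1.22.

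Copies and overlapping genes can share reads with a member, and the counting is not described in the sources used here. GENCODE lists 70 pseudogenes for 33 of the members. Those 33 had a median relative shift of -1.05, with 28 moved lower. The 43 without a listed pseudogene had -0.92, with 38 moved lower, where 24% of all genes did. The 29 members whose exons overlap a gene on the other strand had a median of -0.92, with 26 moved lower, against -1.04 for the other 47, with 40. Of the 19 members with neither a listed pseudogene nor any exon overlap, 16 moved lower, again against 24% of all genes.

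The members were set beside other lists to place their shift. The mRNAs of the 38 respiratory complex I subunits, proteins that mitochondria also import, had a median relative shift of -1.18. Of them 32 moved lower, 84.2% against 24% of all genes, and 0 moved higher, against 23.6%. Their positions had medians of 1.79 with arsenite and 4.44 in control cells. The 78 cytosolic ribosomal protein mRNAs had a median of -0.16, and positions of 2.24 with arsenite and 3.91 in control cells. Of them 11 moved lower, 14.1%, and 9 moved higher, 11.5%, both under the shares of all genes. Both ribosomes thus had their mRNAs at similar mean positions with arsenite, 2.06 for mitochondrial and 2.24 for cytosolic. They were farther apart in control cells, 4.57 and 3.91. The profiles with arsenite were less alike, as fractions 1 and 2 held medians of 71.2% for mitochondrial and 56.8% for cytosolic. These differences have no replicate check. With size factors 21 of the 38 complex I mRNAs moved lower, at a median of -1.91, against 26.4% of all genes. Of the 78 cytosolic ribosomal protein mRNAs 12 moved lower and 7 higher, at a median of -0.48, against 26.4% and 28.7%. Over the 76 members 56 moved lower on that scale, at a median of -1.52.

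Partners of mitochondrial translation were a list of 45 genes, all in the table, with a median of -0.46. Of the 45, 22 moved lower, 48.9% against 24% of all genes, and 0 moved higher, against 23.6%. Of 6 mitoribosomal proteins that carry other names, ICT1 had -1.57, AURKAIP1 -1.01, CHCHD1 -0.96, DAP3 -0.87 and GADD45GIP1 -0.77, and these 5 moved lower. PTCD3 had 0.06 and was not called. The median of these 6 was -0.91. Of the mRNAs of 14 translation factors 4 moved lower, 28.6%, which is near the 24% of all genes. These 4 were the elongation factors TSFM at -1.7, TUFM at -1.39 and GFM1 at -0.80, and the translational activator TACO1 at -1.20. The initiation factor MTIF2 had 0.03 and C12orf65, a release factor homolog, 0.30, the highest of the list. The translation factors had a median of -0.25. The 25 mRNAs for proteins of ribosome assembly, rRNA modification and membrane insertion had -0.62, with 13 moved lower, or 52%. Coding sequences were longer in this list, with a median of 1161 nt against 585 nt for the members.

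**Figure D5:**
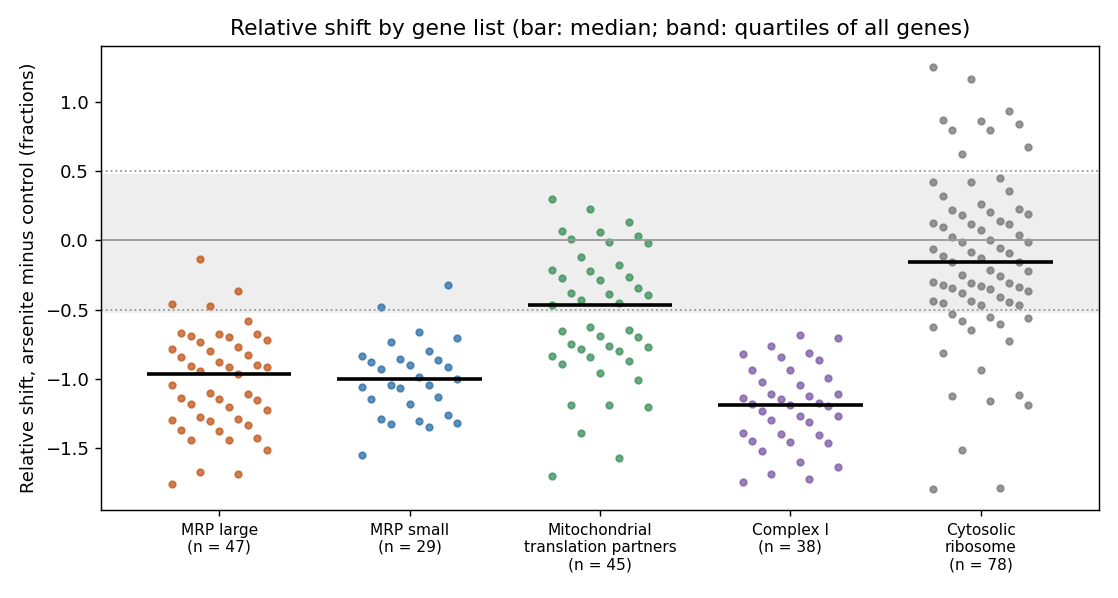
Relative shift in fractions (vertical axis) of each mRNA in the large and small subunit of the mitochondrial ribosome, the partners of mitochondrial translation, complex I and the cytosolic ribosome. Each point is 1 gene, black bars are medians, the grey band spans the quartiles of all genes and dotted lines mark 0.5 fractions; the mitochondrial ribosome at -0.97 and -1.0 and complex I at -1.18 lie below the band, and the cytosolic ribosome at -0.16 lies within it.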

How the data were processed

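RNA from 8 sucrose gradient fractions of arsenite-treated and 8 of control 293S cells was extracted with Trizol and primed by NSR, per the labels. The authors deposited 1 table of 13148 genes in the unit fraction, the share of a gene's total in each gradient fraction, read over RefSeq exons per the file headers; the submitters' processing notes name the build hg19. The deposited shares of a gene and gradient summed to 1 within 2.2e-15, and 3 deposited score columns give position and shift, which recomputed positions matched within 8.9e-15. Not given in the sources used here are the aligner, the counting, strand, the scaling between fractions and the gene filter. Members and lists were chosen with earlier results of these data known.

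Positions, shifts and calls were computed with numpy 2.4.6 and pandas 2.3.3, and tested on simulated data. With 1 library per group, no p-value was computed, and depth is unknown. Lengths, pseudogenes and overlaps came from GENCODE 29 (13035 genes matched, 715 by an older symbol). Genes named are, in each subunit, the 4 lowest and 4 highest relative shifts, the 3 lowest and highest control positions, the shortest and longest coding sequences, and a set with known roles; others are named by a count or a sequence. Alternatives were other scalings, thresholds and summaries, a pseudocount, and leaving out each fraction.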

Additional observations from a re-analysis of the deposited data

How the results depend on the processing

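All values rest on 1 gradient per treatment, so no error between gradients is known, and the scaling between fractions is not described. No paired analysis was possible because each group has 1 library. With size factors the median relative shift was -1.52, the large minus small subunit difference -0.060, and the member median minus that of all genes -1.92 with arsenite and -0.17 in control cells. Leaving out each fraction in turn gave -1.26 to -0.55 for the median relative shift, 40 to 73 members moved lower, -0.038 to 0.089 for the subunit difference, -1.48 to -0.39 for the arsenite and -0.11 to 0.15 for the control difference from all genes; fraction 1 gave the values of 40, against 21% of all genes, -0.55 and -0.39. Without fraction 1 the cause of the smaller values was not tested. A threshold of 1 fraction left 38 members, against 9.33% of all genes, and 0.25 fractions gave 69, against 31.3%. The 19 members with no listed pseudogene and no exon overlap gave 16 moved lower, from fewer genes, against 24% of all genes. Their subunit difference was -0.18. By the share in fractions 5 to 8, 53 members moved lower, against 24.8% of all genes, and 1, MRPL33, higher, against 24.6%, the subunit difference was -0.58 percentage points, and of the called members named, MRPL14, MRPL23 and MRPS24 turned to 6.45, 4.77 and 2.22 percentage points above the median gene, as did MRPL33, MRPL41 and MRPS16, which had not been called. The members above the median gene by that share held at most 39.3% in fractions 5 to 8 in control cells. The median gene held 53.9% there, and the part of this difference in the smaller loss was not tested. By the fraction at which 50% of the total is reached, the subunit difference was -0.074 and 62 members moved lower, against 24.1% of all genes. With the length of the whole mRNA, rho was 0.29 with control position and 0.26 with the relative shift. A pseudocount of 1 percentage point gave 58 members moved lower, against 21.7% of all genes. Over the named genes, 22 alternative values had another sign, 3 of them in called genes and 19 in 8 genes that were not called, among them MRPL33, MRPL41, MRPL42, MRPS21 and MRPS26 without fraction 1. A further 86 kept their sign but moved by over 1.5 times.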
